A study of Rattus norvegicus with 63 samples.

Results

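Gene expression in the nucleus accumbens was compared between rats with long daily access to intravenous cocaine and rats that had never received the drug. Of the 63 arrays of the study, which covers 6 brain regions, 8 belong to this comparison: the arrays whose titles name the nucleus accumbens together with either the long access or the control group. All 1263 probe sets that are not array controls entered, and 738 of them were bright enough to be tested. The 4 long access arrays come from rats with 6 h of access per day and the 4 no access arrays from drug-naive rats with 0 h. The region also has 4 arrays of short access, 1 h per day, which shared the fit and are given as values beside the others. Rats of both cocaine groups worked on a continuous schedule for 0.25 mg per injection, and 8 rats are named for each access group. The strain, sex and age of the rats, the number of days of access, and the delay between the last session and dissection are not given in the sources used here. Neither is it given whether the no access rats had surgery or sessions, so that cocaine and the procedure around it cannot be told apart. The sources also do not say whether an array holds the RNA of 1 rat or of several, so that every p measures only the spread between these arrays, which may be technical.

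The nucleus accumbens is the ventral part of the striatum and takes part in reward and in the control of motivated behaviour. It receives dopamine fibres from the ventral tegmental area and glutamate fibres from the prefrontal cortex, hippocampus, amygdala and thalamus. Nearly all of its neurons are medium spiny neurons, which release GABA. One kind carries the dopamine receptor Drd1 and makes the peptides encoded by Pdyn and Tac1, and the other carries the dopamine receptor Drd2 and the adenosine receptor Adora2a and makes enkephalin from Penk. Cocaine blocks the transporters that clear dopamine, serotonin and noradrenaline from the synapse.

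The array, the Affymetrix Rat Neurobiology U34, holds probe sets for genes of the nervous system, and its deposited signal is a linear intensity. Values below are log2 of that signal after each array was put on one scale, so that a difference of 1 is a doubling, and tests are those of limma on all 12 arrays of the region. On the no access arrays, 9 of 11 tested markers of medium spiny neurons had their highest mean among the 6 regions here. These were Penk, Tac1, Gad1, Drd1, Adora2a, Pdyn, Drd2, Rarb and Chrm4, and the exceptions were Slc32a1 and Drd3. Of the 12 such markers on the array, Oprm1 was too dim in this region to be tested. The list thus holds only markers bright in this region. The share of all probe sets that are highest here is not given, so the list is no test of the region's identity. The mean level of this list lay between 10.52 and 10.67 on the no access arrays and between 10.48 and 10.60 on the long access arrays, a difference of -0.02 (two-sided exact permutation p = 0.771) and of -0.06 without long access arrays 2 and 4. A technical measure separated the groups. The ratio of 3′ to 5′ actin probe sets, which depends on the length of the labelled RNA, was 0.12 ± 0.04 (log2, SD, n = 4) without access and 0.27 ± 0.05 (SD, n = 4) with long access, with no overlap (two-sided exact permutation p = 0.0286, the smallest that 4 against 4 arrays can give, adjusted p = 0.229 over 8 array measures). The same ratio differed by -0.03 for Gapdh (exact permutation p = 0.314) and by 0.14 for hexokinase (exact permutation p = 0.229). Long access arrays 2 and 4 stood apart from arrays 1 and 3 of their group in several genes and marker lists, and where the difference of a marker list, or of the first probe set given for a gene, moved by over 1.5 times without them, it is also given without them. In 9 of the 12 arrays the most similar array was its partner when arrays 1 and 3, and arrays 2 and 4, of a group are taken as pairs. Whether such pairs share rats, a dissection or a run is not given in the sources used here. If they do, n = 4 holds fewer independent samples and the p values are too small. The spike-in RNA signal of these arrays was 11.44 and 11.40, against 10.62 and 11.16 on arrays 1 and 3 and 10.88 to 11.04 on the no access arrays.

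**Figure D1:**
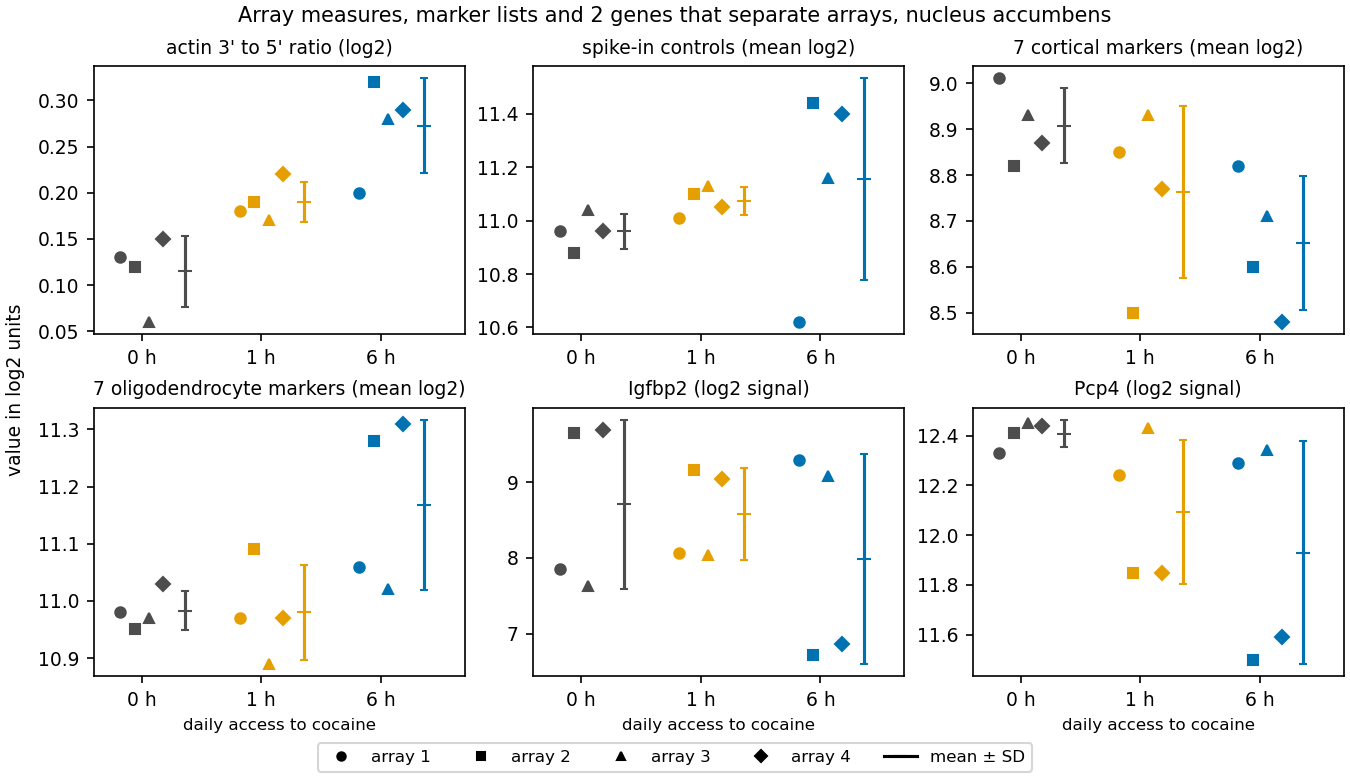
Array measures, marker lists and single genes on the 12 nucleus accumbens arrays, by hours of daily access (horizontal axis), in log2 units (vertical axis, a scale for each panel), with 1 point per array and the mean ± SD beside the points. The actin ratio of the long access arrays, 0.20 to 0.32, lies above that of all no access arrays, and long access arrays 2 and 4 lie together in the panels for the oligodendrocyte list, Igfbp2 and Pcp4.

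No probe set differed between long and no access at an adjusted p under 0.05: limma called 0 of 738 (0%), and the lowest adjusted p was 0.107. At an unadjusted p under 0.05 stood 119 of the 738 (16.1%), of which 62 (8.4%) had the higher mean with long access and 57 (7.72%) the lower. In 40 probe sets (5.42%) all 4 long access arrays lay above all 4 no access arrays, and in 32 (4.34%) all lay below. The differences ranged from -1.31 to 1.49, with a median of 0.018 and a median size of 0.15. The 95% confidence interval of a difference reached a median of 0.32 to either side. A difference of at least 1.5-fold was seen in 24 probe sets and one of at least 2-fold in 3: the serotonin transporter Slc6a4, which is near background, the neuropeptide Cck and the NMDA receptor subunit Grin2a. With the actin ratio as a covariate, 34 probe sets stood at an unadjusted p under 0.05, of which 14 were higher and 20 lower. The ratio did not overlap between the no access and the long access arrays, so this fit cannot tell access and the ratio apart. Without long access arrays 2 and 4, and with no covariate, 86 probe sets stood at an unadjusted p under 0.05. With the pairs of arrays as random blocks, whose residuals correlated at 0.302, there were 84, and the lowest adjusted p was 0.367.

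**Figure D2:**
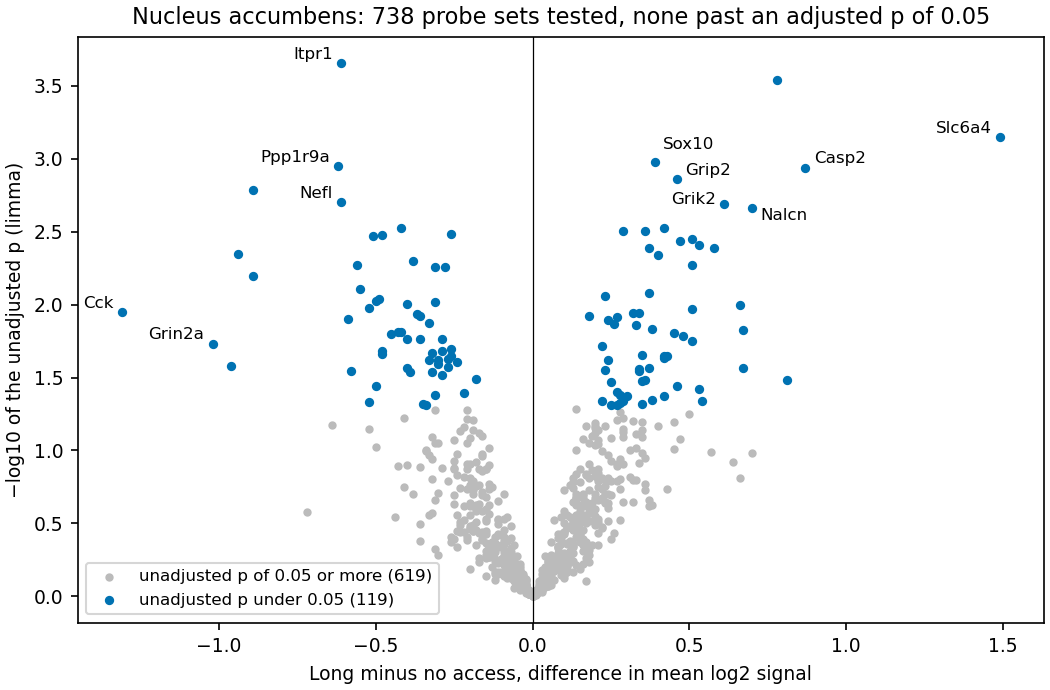
Difference in mean log2 signal, long minus no access (horizontal axis), against -log10 of limma's unadjusted p (vertical axis) for the 738 probe sets tested. Points to the left and right spread about equally, Slc6a4 has the largest difference (1.49) and Cck the most negative (-1.31), and no point passed an adjusted p of 0.05.

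The 16 genes with the smallest p are described by role, as genes that did not pass. Where other probe sets of a gene are given here and below, they are those bright enough to be tested. The long and the no access arrays did not overlap in any of the 16, which follows from choosing small p values and is no separate evidence. Their adjusted p (limma, over 738 probe sets) was 0.107 for Itpr1 and 0.132 for the other 15. A probe set with no gene symbol had the next p after Itpr1, at 7.36, 7.21, 7.10 and 7.01 without access and 7.91, 8.07, 7.99 and 7.84 with long access. It is mentioned after its values were seen.

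Itpr1 encodes the inositol trisphosphate receptor, which releases calcium from the endoplasmic reticulum. Its signal was 9.68, 9.33, 9.67 and 9.30 on the no access arrays and 8.84, 8.99, 8.76 and 8.93 on the long access arrays. All 4 long access arrays were lower, by a difference of -0.61 ± 0.12 (SE), or 1.53-fold (limma adjusted p = 0.107). The short access arrays, at 9.22, 8.95, 9.12 and 8.76, also lay below all no access arrays. The gene has 5 probe sets, and the others differed by -0.89, -0.32, -0.20 and 0.03 between long and no access, so that the probe sets of this gene disagree. The neuronal actin-binding scaffold neurabin, Ppp1r9a, which brings protein phosphatase to dendritic spines, had a similar range. It stood at 7.96, 7.77, 8.34 and 7.94 without access and 7.37, 7.50, 7.59 and 7.07 with long access, a difference of -0.62 ± 0.15.

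Genes of the monoamine systems included the largest difference of the table. Slc6a4, a direct target of cocaine that is made by serotonin neurons of the raphe, had signals of 6.84, 6.30, 5.00 and 5.70 without access and 7.47, 7.09, 7.05 and 8.17 with long access. The value of 5.00 is the floor of the scale, and the no access values lie around the mean of the antisense control probe sets on the same arrays, 6.23 to 6.69, so no fold is read from them. The difference was 1.49 ± 0.35 (limma adjusted p = 0.132) and 1.16 with a floor of 64. It rests on 1 of the 2 probe sets of Slc6a4 on the array, as the other was too dim to be tested. The short access arrays stood at 7.60, 7.25, 7.55 and 7.11. The cell bodies of serotonin neurons lie outside the nucleus accumbens, and where this signal comes from was not tested. The serotonin receptor Htr2c was at least 8.80 on every array without access and stood at 8.55, 8.32, 8.64 and 8.00 with long access. Its difference of -0.51 ± 0.14 moved to -0.29 without long access arrays 2 and 4, and its other probe set differed by -0.16.

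At glutamate synapses, Grip2, a scaffold protein that binds AMPA receptors, had nearly the same signal on all no access arrays, 8.00, 8.02, 8.04 and 7.98. With long access it stood at 8.45, 8.53, 8.37 and 8.52, a difference of 0.46 ± 0.12, and its other probe set differed by 0.42. On the short access arrays it was 8.54, 8.59, 8.12 and 8.53, again above all no access arrays. Grik2, a kainate receptor subunit, was 8.10, 7.43, 8.28 and 7.75 without access. It ranged from 8.36 to 8.57 with long access, so that the long access arrays were close together and the no access arrays spread, and the difference was 0.61 ± 0.16.

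Ion channel genes were found on both sides. Nalcn, which encodes a sodium leak channel that sets the resting potential, stood at 8.78, 8.62, 9.03 and 7.97 without access and 9.08, 9.30, 9.45 and 9.37 with long access, a difference of 0.70 ± 0.19. Array 4 without access was the lowest by a wide margin, and the difference without it was 0.49. The other probe set of Nalcn differed by 0.18. Kcnd3, an A-type potassium channel subunit, differed by 0.47 ± 0.13 and its other tested probe set by 0.36. Kcnf1, a potassium channel subunit that is silent on its own, was 8.66, 8.50, 8.40 and 8.66 without access and 8.03, 8.39, 8.04 and 8.09 with long access. Its difference was -0.42 ± 0.12, and the short access arrays, 7.99, 8.16, 7.98 and 7.98, also lay below all no access arrays.

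Of the remaining genes, Gfra2, the receptor of neurturin, stood between 6.78 and 7.15 without access and between 7.32 and 7.49 with long access, a difference of 0.51 ± 0.15. Its other probe sets differed by 0.42 and 0.29. The short access mean was 7.52, a difference from no access of 0.64. Agrn, the proteoglycan agrin, differed by 0.29 ± 0.08 with long access and by 0.34 with short access, and Cspg5, a proteoglycan of the nervous system, by 0.36 ± 0.10 and 0.13. Casp2, a protease of the cell death pathway, was 6.98, 7.08, 7.18 and 6.40 without access and 7.84, 8.04, 7.55 and 7.67 with long access. Its difference was 0.87 ± 0.21, while its other tested probe set differed by 0.18. The neurofilament light chain Nefl was 9.74, 9.78, 9.64 and 9.69 without access and 9.45, 8.57, 9.36 and 9.02 with long access. Arrays 2 and 4 were the lowest, and its difference of -0.61 ± 0.16 was -0.31 without them, while its other probe set differed by -0.14. Pja2, a ubiquitin ligase that acts on the regulatory subunit of protein kinase A, followed the same order, with 12.48, 11.82, 12.32 and 11.81 with long access against 12.49 to 12.68. Its difference of -0.48 ± 0.14 was -0.19 without arrays 2 and 4, and its other probe sets differed by -0.27 and 0.20. With the actin ratio as a covariate the difference of Nefl was 0.02 and that of Pja2 0.10. Under the same covariate it was -0.18 for Htr2c, 0.14 for Agrn, -0.77 for Kcnf1, -0.39 for Ppp1r9a and 0.94 for Grik2, each over 1.5 times away from the value without it. The other 9 of the 16 genes moved by less. As access and this ratio cannot be told apart, the values under the covariate are not corrected differences.

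**Figure D3:**
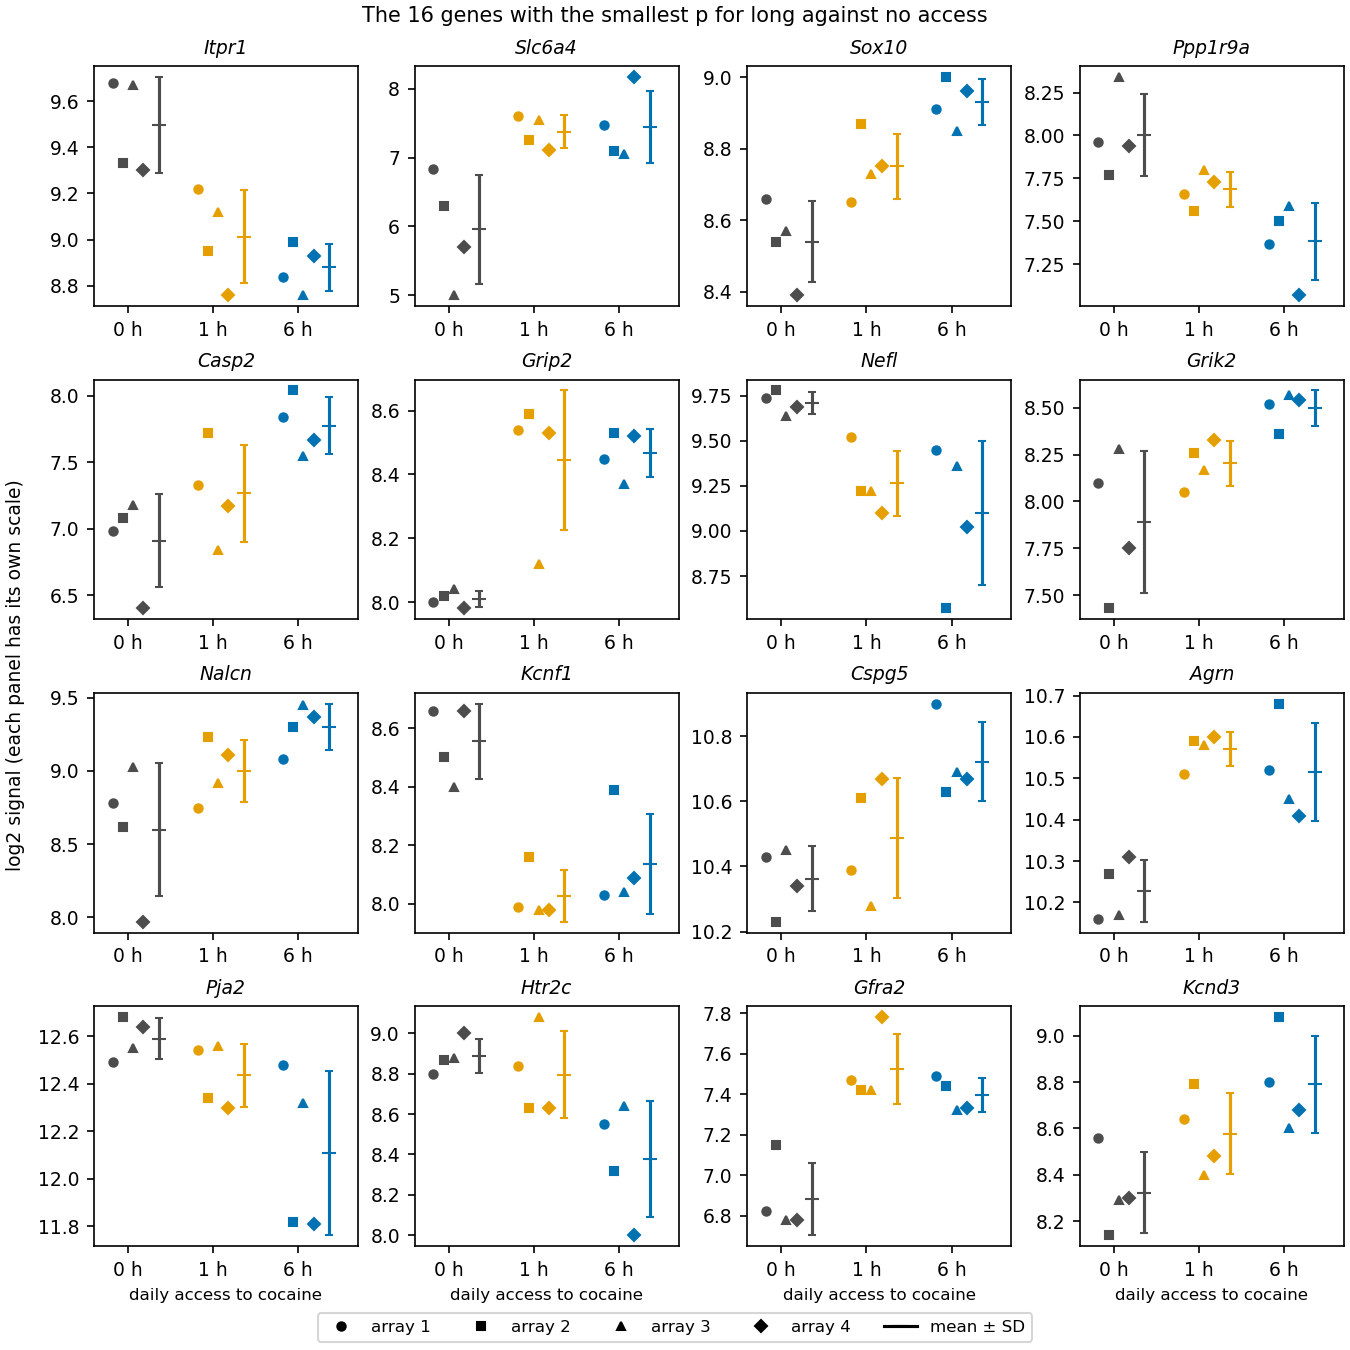
Log2 signal (vertical axis, a scale for each panel) of the 16 genes with the smallest p for long against no access, by hours of daily access (horizontal axis), with 1 point per array and the mean ± SD. In each panel the 6 h arrays lie on one side of the 0 h arrays, and for Itpr1, Slc6a4, Grip2, Nefl, Kcnf1, Agrn and Gfra2 the 1 h arrays lie beyond the 0 h arrays as well.

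All comparisons within the region share arrays, so their values are only set side by side. Short against no access had 0 of 738 probe sets at an adjusted p under 0.05 and 75 at an unadjusted p under 0.05 (limma). Long against short access also had 0, with 71 unadjusted and a lowest adjusted p of 0.0594. Sox10 had group means of 8.54, 8.75 and 8.93 for 0, 1 and 6 h, Casp2 of 6.91, 7.27 and 7.78, and Ppp1r9a of 8.00, 7.69 and 7.38. In these genes the short access mean lay between the others. Htr2c had 8.89, 8.79 and 8.38, where short access was near no access. Slc6a4 had 5.96, 7.38 and 7.45 and Grip2 8.01, 8.45 and 8.47, where it was near long access.

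Of the genes that define the medium spiny neurons, 0 passed the test. Drd1 stood at 8.58, 8.58, 8.34 and 8.18 without access and 7.73, 7.90, 8.27 and 8.10 with long access, a difference of -0.42 ± 0.15 (limma adjusted p = 0.198). The groups overlapped, and this was the dimmest probe set of Drd1. The other probe sets differed by -0.22 and, in the brightest, by -0.07. Adora2a was 10.73, 10.70, 10.83 and 10.69 without access and 10.41, 10.54, 10.37 and 10.58 with long access. All long access arrays were lower, by a difference of -0.26 ± 0.10 (limma adjusted p = 0.221). Drd2 was nearly constant without access, 9.91 to 10.01, and spread with long access, 9.68, 10.03, 9.39 and 10.20, so that its difference of -0.12 ± 0.16 was smaller than the long access spread. Without arrays 2 and 4 it was -0.41.

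The peptide genes of these neurons overlapped between the groups in the first probe set given. Penk was 12.14, 11.90, 12.22 and 12.11 without access. With long access it was 12.56 and 12.53 on arrays 2 and 4, 12.22 on array 3 and within the no access range on array 1, a difference of 0.23 ± 0.12 (limma adjusted p = 0.364). Pdyn differed by 0.05 ± 0.13 and Tac1 by -0.14 ± 0.09, while the other, brighter probe set of Tac1 differed by -0.36. Without long access arrays 2 and 4 the differences of these peptide genes were 0.02 for Penk, -0.11 for Pdyn and -0.04 for Tac1. Gad1, which makes GABA, was 11.44, 11.71, 11.77 and 11.51 without access and 11.92, 11.93, 12.11 and 11.81 with long access. All long access arrays were higher, by a difference of 0.33 ± 0.12 (limma adjusted p = 0.192). Among 10 tested genes of dopamine receptors and striatal dopamine signalling, 0 passed. At an unadjusted p under 0.05, 1 had a higher mean (Adora3) and 2 a lower mean (Adora2a and Adora2b), all of them adenosine receptors, with a median difference of 0.02 against 0.01 over all 453 genes tested.

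**Figure D4:**
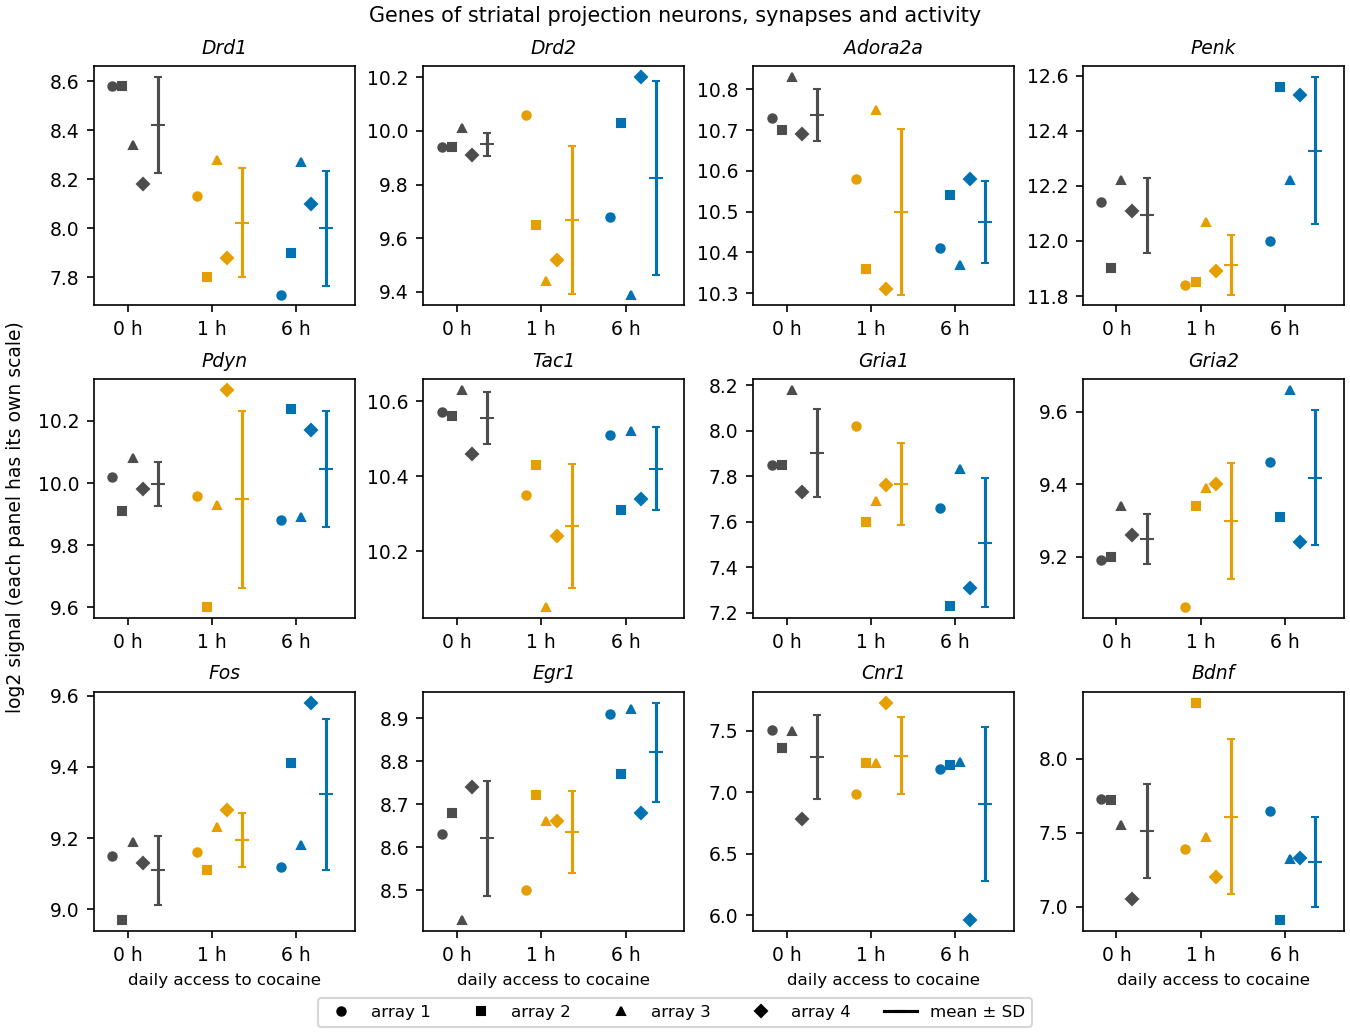
Log2 signal (vertical axis, a scale for each panel) of genes of medium spiny neurons, glutamate receptors and activity-induced genes, by hours of daily access (horizontal axis), with 1 point per array and the mean ± SD. The 0 h and 6 h arrays overlap in all panels except that of Adora2a.

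Genes were grouped in lists with 1 probe set per gene, the brightest. Of 453 genes tested in this way 0 passed and 69 (15.2%) stood at an unadjusted p under 0.05, 38 higher and 31 lower. Counts within the lists are read against that share. No count below is of genes that passed.

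Among 11 neuropeptide genes, 1 was higher (Nmu) and 2 were lower (Sst and Cck) at an unadjusted p under 0.05. The difference of Sst was -0.32 ± 0.12, and -0.08 without long access arrays 2 and 4, while its other probe set differed by 0.16. Cck encodes cholecystokinin, which in the forebrain is made mostly by cortical and other neurons that project to the striatum and by interneurons. Its signal was 8.53, 8.04, 8.35 and 8.23 without access and 7.87, 6.72, 7.80 and 5.54 with long access. All long access arrays were lower, arrays 2 and 4 most, and the difference was -1.31 ± 0.45, or 2.48-fold (limma adjusted p = 0.186). Without arrays 2 and 4 it was -0.45. Cck is also 1 of 7 markers of cortical projection neurons on the array. Its no access mean was 12.71 in the medial prefrontal cortex and 8.29 in the nucleus accumbens. Elsewhere it was 11.68 (ventral tegmental area), 11.07 (amygdala), 8.88 (septum) and 8.54 (lateral hypothalamus), so high Cck signal was not limited to cortex. Camk2a had its highest regional mean in the nucleus accumbens and Nptxr in the amygdala. Nrgn, Itpka, Stx1a, Cck and Adra1d had theirs in the medial prefrontal cortex. The mean of the 7 markers was 8.82 to 9.01 without access and 8.82, 8.60, 8.71 and 8.48 with long access, a difference of -0.26 (two-sided exact permutation p = 0.0286, adjusted p = 0.286 over 10 cell types). Most of it came from Cck: over the other 6 markers the difference was -0.08. Without long access arrays 2 and 4 it was -0.14 over the 7. Of these 7, Cck and Nrgn had an unadjusted p under 0.05. The part of dissection and of cortical tissue in these values was not tested. In bulk tissue fewer cells of a type and less RNA per cell cannot be told apart.

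Glutamate receptors were represented by 8 AMPA, kainate and delta, 7 NMDA and 4 metabotropic genes. At an unadjusted p under 0.05 these lists held 1 higher and 0 lower, 0 higher and 1 lower, and 0 higher and 1 lower. Gria1, an AMPA receptor subunit, was 7.85, 7.85, 8.18 and 7.73 without access and 7.66, 7.23, 7.83 and 7.31 with long access. The difference was -0.39 ± 0.16 with overlapping groups (limma adjusted p = 0.231), and its other probe sets differed by -0.31 and -0.21, so all 3 had the lower mean. Gria2 differed by 0.17 ± 0.11, and its other, brighter probe set by 0.04. Without long access arrays 2 and 4 the differences were -0.16 for Gria1 and 0.31 for Gria2. Grin2a was 8.16, 8.41, 8.15 and 7.79 without access and 5.75, 6.90, 7.51 and 8.29 with long access. Its difference of -1.02 ± 0.38 was smaller than the range of the long access arrays, and the groups overlapped. The other probe set of Grin2a on the array was too dim to be tested. Grin2d, another NMDA receptor subunit, was between 7.21 and 7.42 without access and between 7.64 and 8.07 with long access. The difference was 0.51 ± 0.16 (limma adjusted p = 0.136), and its other probe set differed by 0.22. Of the metabotropic receptors Grm5 differed by -0.40 ± 0.15 and by -0.69 without arrays 2 and 4, and the 3 probe sets of Grm7 by 0.51, 0.13 and -0.26.

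The postsynaptic density list of 9 genes held 2 genes with a higher mean (Grip2 and Cit) and 2 with a lower one (Ppp1r9a and Nrgn) at an unadjusted p under 0.05, with a median difference of 0.10. Nrgn, the calmodulin-binding protein neurogranin, differed by -0.18 ± 0.08 with no overlap, and its other probe set by -0.01. The astrocytic glutamate transporter Slc1a2 had 2 tested probe sets, of 3 on the array, with differences of -0.89 ± 0.28 and -0.59. The brightness of that gene varied among the no access arrays, 8.63, 7.55, 8.53 and 7.96, and overlapped with long access in the first probe set.

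Of 17 genes of GABA receptors, synthesis and transport, 1 was higher (Gad1) and 4 lower (Gabrb2, Gabra4, Gabrd and Gabra3) at an unadjusted p under 0.05. The 4 are subunits of the GABA-A receptor, a chloride channel. Gabrb2 was 7.80, 7.58, 7.94 and 7.78 without access and 7.35, 7.03, 7.56 and 7.20 with long access, a difference of -0.49 ± 0.16 (limma adjusted p = 0.186), and all long access arrays were lower. Gabra4 differed by -0.33 ± 0.13 with overlap. Without long access arrays 2 and 4 the differences were -0.32 for Gabrb2 and -0.15 for Gabra4. The median difference of the 17 genes was -0.03.

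Opioid, cannabinoid and other peptide receptors (7 genes), acetylcholine genes (8 genes) and activity-induced genes (11 genes) had 0 members at an unadjusted p under 0.05 among their brightest probe sets. The cannabinoid receptor Cnr1 differed by -0.38 ± 0.28, and array 4 with long access stood alone at 5.96. Fos, the best known marker of recent neuronal activity, was 9.15, 8.97, 9.19 and 9.13 without access and 9.12, 9.41, 9.18 and 9.58 with long access, a difference of 0.21 ± 0.11. Egr1 differed by 0.20 ± 0.10 in one probe set and by -0.15, -0.07 and -0.04 in the others. Bdnf, a growth factor delivered to the striatum mainly by cortical fibres, differed by -0.21 ± 0.25. Of its 7 probe sets on the array only 1 was bright enough to be tested. Homer1 and Arc were not analysed here. The groups overlapped in Cnr1, Fos, Egr1 and Bdnf. With long access arrays 2 and 4 left out the differences were -0.07 for Cnr1, 0.04 for Fos and -0.03 for Bdnf. Among the acetylcholine genes, the vesicular transporter Slc18a3 was 8.44 to 8.71 without access and 8.32 to 8.41 with long access in one probe set, a difference of -0.21 ± 0.10 with no overlap, and its other probe set differed by -0.11. The muscarinic receptor Chrm1 differed by -0.96 ± 0.39 in its dimmer probe set, with overlap and -0.52 without long access arrays 2 and 4, and by -0.27 in the brighter one.

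Synaptic vesicle and SNARE genes numbered 25, with 4 higher (Syt11, Syt3, Stx5 and Synj2) and 1 lower (Snap25) at an unadjusted p under 0.05. Syt11 was 10.20, 9.92, 10.26 and 10.11 without access and 10.29, 10.54, 10.29 and 10.43 with long access, a difference of 0.26 ± 0.09 with no overlap, and 0.17 without arrays 2 and 4. Snap25, a SNARE protein of vesicle fusion, differed by -0.31 ± 0.10, but its other 3 probe sets differed by 0.17, 0.06 and 0.02. Of 26 potassium channel genes, 2 were higher (Kcnd3 and Kcnj10) and 3 lower (Kcnd2, Kcnj4 and Kcnk1). Kcnf1 and Kcnt1, which differed by -0.42 and 0.28, are potassium channel genes outside that list, and both stood at an unadjusted p under 0.05. Kcnd2, which forms A-type channels as Kcnd3 does, was 9.26 to 9.40 without access and 8.78 to 9.11 with long access. Its difference of -0.31 ± 0.10 was thus opposite in sign to the 0.47 of Kcnd3, while its other probe set differed by 0.06. Of 20 sodium and calcium channel genes, 2 were higher (Cacna1c and Scn1a) and 1 lower (Scn2b), with a median difference of 0.12. Among 9 ion pumps and exchangers the sodium pump subunit Atp1b2 differed by 0.53 ± 0.15 and 0.23 in its 2 probe sets, and the exchanger Slc24a2 differed by -0.52 ± 0.18.

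In the calcium, cyclic AMP and protein kinase C list, 0 of 28 genes were higher and 4 were lower (Pcp4, Nrgn, Prkcz and Pkia) at an unadjusted p under 0.05, with a median difference of -0.07. Pcp4, a calmodulin regulator, was 12.33 to 12.45 without access and 12.29, 11.50, 12.34 and 11.59 with long access. Arrays 1, 2 and 4 lay below the no access range, array 1 by little, and the difference of -0.48 ± 0.18 was -0.09 without arrays 2 and 4. The brightest probe set of Itpr1 was not the one with the smallest p, and does not count among the 4. Mapk14, the stress kinase p38 alpha, belongs to a list of 13 genes of MAP kinase, PI3 kinase and Src family signalling. Its 5 tested probe sets, of 6 on the array, all had the higher mean, by 0.40 ± 0.12, 0.45, 0.33, 0.14 and 0.12. The first was 0.21 without arrays 2 and 4. Of 23 neurotrophic and growth factor genes, 3 were higher (Gfra2, Igf1r and Pdgfra) and 0 lower. Pdgfra differed by 0.34 ± 0.14, but its other tested probe set by -0.22.

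Among 23 stress, antioxidant and apoptosis genes, 3 were higher (Casp2, Casp1 and Mt1) and 0 lower, with a median difference of 0.09. Mt1, a metal-binding protein induced by stress, was 10.42, 10.22, 10.28 and 10.39 without access and 10.55, 10.56, 10.56 and 10.58 with long access. All long access arrays were higher and almost equal, a difference of 0.24 ± 0.09 (limma adjusted p = 0.222). Casp1, the protease that activates interleukin-1 beta, was 7.13, 7.81, 7.95 and 7.92 without access and 8.00, 8.57, 8.08 and 8.78 with long access, a difference of 0.66 ± 0.22 that was 0.34 without arrays 2 and 4. Hrk, which promotes apoptosis, differed by 0.58, 0.09 and -0.21 in its 3 tested probe sets, the first of them by 0.35 without arrays 2 and 4. Of 10 cytoskeletal genes, the microtubule protein Map2 had 5 probe sets that disagreed, with differences of 0.37, -0.14, -0.34, -0.48 and -0.56. Map1a differed by -0.94 and 0.04 in its 2 probe sets. Probe sets of a gene can read different parts of its transcripts.

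**Figure D5:**
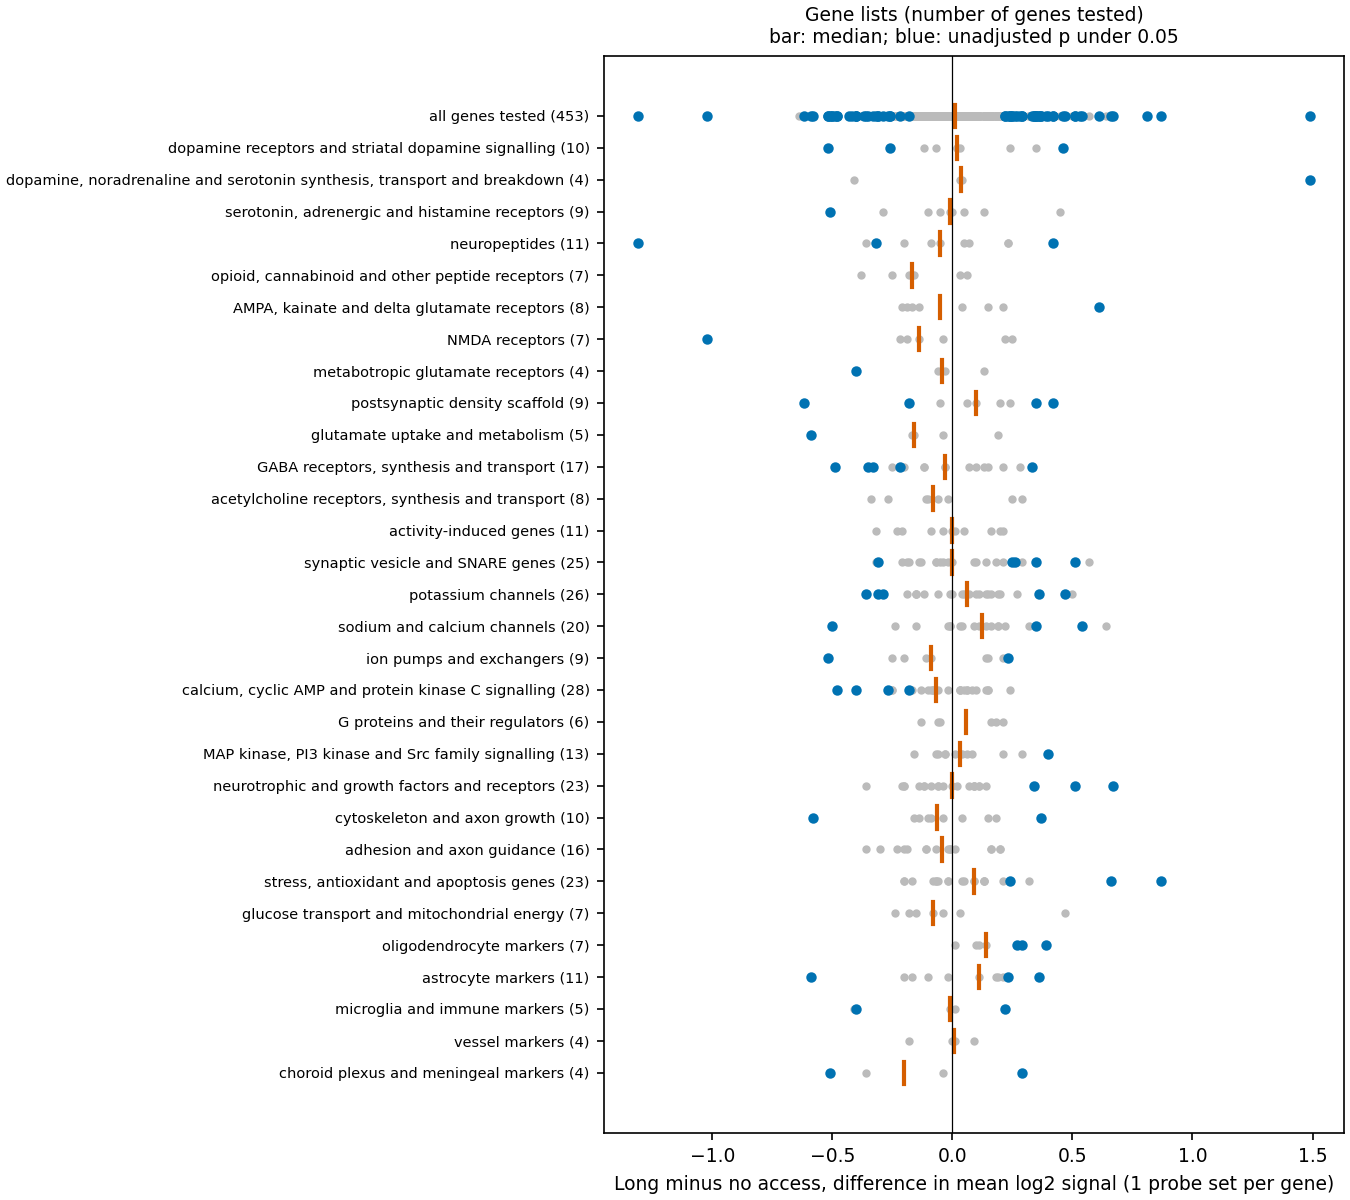
Long minus no access difference in mean log2 signal (horizontal axis) for each gene of 30 lists and for all 453 genes tested (top line), with 1 point per gene by its brightest probe set, blue where the unadjusted p is under 0.05, and a bar at the list's median. The medians lie between -0.20 and 0.14, and the oligodendrocyte list is the only one of these with all points above 0.

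Genes of oligodendrocytes, the cells that make myelin, had the higher mean with long access in 7 of 7 cases, against 239 of all 453 genes tested. Their median difference was 0.14, and 3 of the 7 stood at an unadjusted p under 0.05 (Sox10, Tf and Enpp2). Sox10, the transcription factor of this lineage, was 8.66, 8.54, 8.57 and 8.39 without access and at least 8.85 on every array with long access. The difference was 0.39 ± 0.10, with no overlap (limma adjusted p = 0.132). Tf, which encodes transferrin, had all 3 probe sets higher, by 0.37, 0.29 and 0.23, the first of them by 0.19 without arrays 2 and 4. The mean of the 7 markers was 10.98, 10.95, 10.97 and 11.03 without access and 11.06, 11.28, 11.02 and 11.31 with long access, a difference of 0.19 (two-sided exact permutation p = 0.0571, adjusted p = 0.286 over 10 cell types). Arrays 2 and 4 were the ones farthest from the no access arrays, and without them the difference was 0.06. The white matter taken in with the dissection was not measured, and its part in these values was not tested.

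For the other cell types the mean level differed by 0.02 for 11 astrocyte markers (exact permutation p = 0.8), -0.12 for 5 microglial and immune genes (exact permutation p = 0.229), 0.01 for 5 markers of striatal interneurons (exact permutation p = 0.943) and -0.02 for 4 vessel genes (exact permutation p = 0.743). It differed by -0.15 for 4 choroid plexus genes (exact permutation p = 0.571), -0.11 for 3 septal and hypothalamic genes (exact permutation p = 0.629) and -0.27 for Drd2 and Ddc, the 2 tested genes of the dopamine neuron list (exact permutation p = 0.2). With long access arrays 2 and 4 left out the differences were 0.09 for astrocytes, 0.21 for interneurons, -0.01 for vessels, 0.05 for choroid plexus and 0.11 for the septal and hypothalamic genes. The last 2 lists share Igfbp2. The defining markers of dopamine neurons, Th and Slc6a3, were too dim in this region to be tested. The 5 microglial and immune genes were Cx3cl1, B2m, C4b, Il6r and Ptgs2, of 17 on the array. The rest, among them Itgam, C3 and Tnf, were also too dim, so that value covers only part of the list. Igfbp2, a growth factor binding protein abundant in the septum, split every access group into pairs of arrays. It was 7.86, 9.65, 7.63 and 9.69 without access, 8.06, 9.16, 8.04 and 9.04 with short access and 9.29, 6.72, 9.09 and 6.86 with long access. In the no and short access groups arrays 2 and 4 were the high ones and in the long access group arrays 1 and 3. The difference between long and no access, -0.72 ± 0.62, was smaller than the spread within either group, and was 0.48 without long access arrays 2 and 4.

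Whether the values differ from those of other regions was tested as the nucleus accumbens difference minus the mean difference of the other 5 regions, in 1 fit of all 63 arrays. Each access group has fewer rats than arrays over the 6 regions, so some regions share rats, while the fit treats all arrays as independent. Which arrays share a rat is not given in the sources used here. Of 738 probe sets 0 (0%) passed an adjusted p of 0.05, and 37 (5.01%) stood at an unadjusted p under 0.05. The lowest adjusted p was 0.861. The smallest p belonged to Nalcn, with 0.70 in the nucleus accumbens and a mean of 0.05 elsewhere, followed by Nefl, with -0.61 and 0.00. Next came Casp1, with 0.66 and 0.00. Sox10 differed by 0.39 here, by 1.14 in the lateral hypothalamus, by -0.47 in the amygdala and -0.16 in the septum, by 0.18 in the medial prefrontal cortex and by 0.06 in the ventral tegmental area. Ppp1r9a differed by -0.62 here, by -0.89 in the lateral hypothalamus and -0.84 in the medial prefrontal cortex, and by 0.24, -0.14 and 0.23 in the amygdala, septum and ventral tegmental area. Grip2 and Gfra2 had the higher mean with long access in all 5 other regions too, by 0.13 to 0.21 and by 0.08 to 0.27. Slc6a4 differed by 1.06 in the lateral hypothalamus, 0.90 in the septum, -0.75 in the amygdala, -0.39 in the medial prefrontal cortex and 0.03 in the ventral tegmental area.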

How the data were processed

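Signals of 63 arrays of the Rat Neurobiology U34 design were used. The authors deposited them as signal intensities on a linear scale, and the submitters' processing notes name MAS5. Which version and target it was run with is not stated there. The trimmed mean of the deposited signal was 251 on all arrays of the region. Arrays have no sequencing depth, and their number limits the precision.

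For the present comparison the 1263 probe sets other than controls were scaled on every array to a mean of 500 after trimming 2% at each end, floored at 32 and put on the log2 scale. Probe sets with a mean of at least 100 over the 12 arrays of the region, 738 in all, were fitted in limma 3.58.1 under R 4.3.3 with 3 access groups, an intensity trend and Benjamini-Hochberg adjustment. Of the 1263, 1137 have 1 gene symbol in the platform annotation, 8 several and 118 none. Names were checked against RefSeq by Entrez identifier, which found 1132 and altered 0. The suffix of 565 probe sets marks possible cross-hybridisation.

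As 0 probe sets passed, the rule named the 16 genes with the smallest p, up to 5 each way for the difference between regions, up to 4 members of each list, and 14 genes whatever their values. The members, gene lists, markers and tests were chosen with earlier results of these data known. Single measures were compared by two-sided exact permutation tests. The fit was tested on simulated data. Alternatives changed the scaling, floor, filter, trend, weights, block, arrays and covariates. Those that leave out long access arrays 2 and 4 together, add the actin ratio or take pairs of arrays as random blocks were chosen after seeing the data. The deviations of same-numbered arrays from their group means correlated at -0.12 to 0.22 between groups. These correlations cannot settle whether the numbers pair arrays, which is not given in the sources used here.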

Additional observations from a re-analysis of the deposited data

Results flagged for a closer look

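In 260 groups of 4 arrays of the named genes and array measures, 10 (3.85%) held an array far from the other 3 by Dixon's criterion, which chance reaches in about 1 of 20 groups. All 10 were of genes. With long access these were Cnr1 at 5.96 on array 4 (others 7.19 to 7.25), Grm4 at 8.87 on array 4 (9.59 to 9.63), Maoa at 8.15 on array 1 (9.4 to 9.5), Slc1a3 at 11.36 on array 1 (11.71 to 11.77), Pde4a at 7.07 on array 3 (7.39 to 7.44) and Htr3a at 8.62 on array 2 (8.81 to 8.84). Without access they were Gfra2 at 7.15 on array 2 (6.78 to 6.82), Nmu at 8.20 on array 4 (7.75 to 7.82), Glul at 13.05 on array 3 (13.17 to 13.19) and Kcnd2 at 9.40 on array 1 (9.26 to 9.27). No array held more than 2 of the 10.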

How the results depend on the processing

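The count of 0 probe sets at an adjusted p under 0.05 (limma) for long against no access held under all 29 alternatives that kept this threshold, with a lowest adjusted p of 0.0509 (all 63 arrays in 1 fit) to 0.454 (actin ratio as a covariate). An unadjusted p under 0.05 gave 119, and this count ran from 34 with the actin ratio to 150 without a filter, with 49 in the fit of all arrays. Leaving out each of the 12 arrays in turn gave 0 called every time and 85 to 143 unadjusted. A block for the replicate number, although it is not known whether the numbers pair arrays, gave 0 called and 119 unadjusted. The difference from the other 5 regions stayed at 0 called under all 24 alternatives, also with each of the 8 nucleus accumbens arrays compared left out and with the replicate block, and at 20 to 70 unadjusted. Of 433 values of the 16 genes under the alternatives, 431 kept their direction and 0 passed. Those that reversed were Nefl at 0.02 and Pja2 at 0.10, both with the actin ratio as a covariate. Access and that ratio cannot be told apart, and the cause was not tested. A median interval of 0.32 to either side limits what 4 arrays per group can show. Slc6a4, at the floor on 1 of the no access arrays, is measured near background.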
